A study of Rattus norvegicus with 5 samples.

Results

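The 10 genes described here encode MAP kinase phosphatases (Dusp1, Dusp4, Dusp5, Dusp6, Dusp8 and Dusp10), Sprouty proteins (Spry1, Spry2 and Spry4) and the related feedback gene Phlda1. They were taken by name, each through a probe set that the platform annotation pairs with that gene symbol alone. All 10 were measured, each by 1 such probe set, out of 14506 genes with a probe set of a single symbol and 29215 probe sets in all. Sprague-Dawley rats with type I diabetes were the source of the cells, which were isolated from kidney as proximal tubular cells, the epithelium of the first nephron segment. Cells from 3 animals had C-peptide, the peptide that joins the insulin chains in proinsulin, for 2 h, and cells from 2 animals were left untreated, so diabetes is shared by both groups. Total RNA of each sample was read on 1 Affymetrix whole-transcript array. The sources used here do not give how diabetes was induced, the C-peptide dose, the age of the rats, or whether the same animals gave cells to both groups.

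MAP kinase cascades carry signals from growth factor receptors and from stress to the nucleus through a chain of kinases that ends in ERK, JNK or p38. Dual-specificity MAP kinase phosphatases remove the activating phosphates from these last kinases, and several of their genes are themselves switched on by the cascade, so that a signal raises its own brake. Sprouty proteins act further up, between the receptor and Raf, and their genes too are induced by ERK. In the kidney Spry1 is known for restraining Ret signalling during outgrowth of the ureteric bud. Transcripts of this kind are often read as a measure of how strongly ERK has been working, and the comparison asks for that readout after C-peptide. Phosphorylated ERK was not measured on these arrays, and stress and hormone signals act on some of the same genes.

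After 2 h of C-peptide, 5 of the 10 transcripts were lower than in untreated cells at an unadjusted threshold and none was higher. Phlda1 was 2.05-fold higher in untreated than in treated cells, Dusp8 1.73-fold, and Spry1, Dusp1 and Dusp5 1.46-fold, 1.42-fold and 1.42-fold. Levels are PLIER probe-set intensities brought to 1 distribution across arrays by quantile normalisation, and folds and differences are on the scale log2(intensity + 16). These 5 had an unadjusted p under 0.05 in limma, all lower with C-peptide, where 6.30% of all 29215 probe sets were lower at that threshold and 5.06% higher, the latter against 0 of the 10 genes. After Benjamini-Hochberg adjustment over all probe sets none of the 10 passed at an adjusted p of 0.05, and neither did any other probe set (0%), although 3317 had an unadjusted p under 0.05. The treated arrays all lay below both untreated arrays in 7 of the 10 genes, against 13.8% of all probe sets, and all above them in 0 of the 10, against 16.1%. The median log2 difference over the 10 genes, C-peptide minus untreated, was -0.51, beside 0.02 over all probe sets.

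That count of 5 depended on which arrays were kept. It was 1 (Phlda1) without untreated animal 1, where the median of the 10 genes was -0.32 and 3.57% of all probe sets were lower. It was 3 (Dusp8, Spry1 and Phlda1) without C-peptide animal 3, where 5.21% of all probe sets were. Without C-peptide animal 2 the count was 4, beside 6.56% of all probe sets. Without C-peptide animal 1 it was again 5, beside 6.07%, with Spry4 in place of Dusp1. The median of the 10 genes was -0.67 without untreated animal 2. The split of all probe sets at an unadjusted p under 0.05 also turned on the scaling, at 55.5% lower here and 90.6% lower in the values as deposited, where all probe sets had a median of -0.13 and 6 of the 10 genes were lower beside 6.38% of all probe sets.

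**Figure D1:**
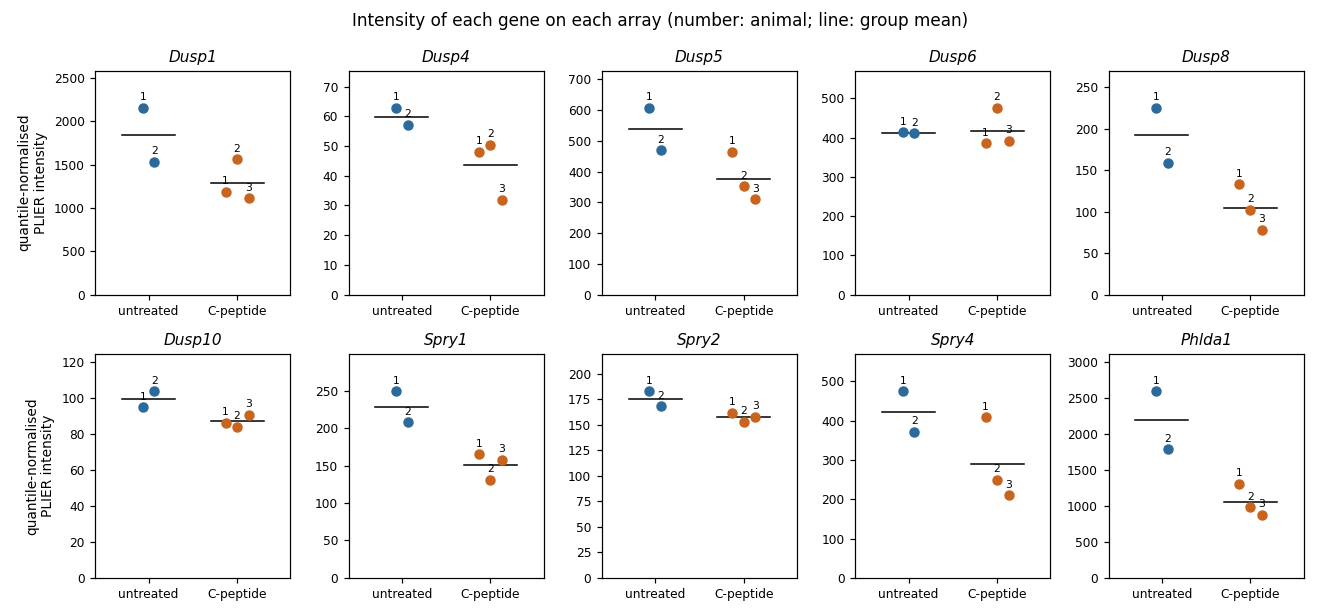
Quantile-normalised PLIER intensity (linear axis from 0) of each of the 10 genes on the 2 untreated arrays (blue) and the 3 C-peptide arrays (orange); numbers are animals and lines are group means. In 7 genes every orange point lies below every blue point, while in Dusp1, Dusp6 and Spry4 the groups overlap.

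The marker levels of the cell preparation moved with the same contrast. Proximal tubule markers, 12 of 13 measured and none with a 0 on any array, summed to 22761 to 30362 intensity units on the C-peptide arrays and to 16173 to 19627 on the untreated arrays. Endothelial markers, 11 of 12 measured and likewise never at 0, summed to 8698 to 13545 with C-peptide and to 20758 to 24512 without. Of these endothelial markers 10 were lower at an unadjusted p under 0.05, with a median log2 difference of -1.14. Immune cell markers (9 of 10 measured) were lower by a median of 0.49 on the log2 scale with 6 at that threshold, summed from 5312 to 7356 against 7773 to 8721. Podocyte markers (5 of 7 measured) had a median of -0.65 and sums of 1460 to 2454 against 3799 to 4626. The 3 lower ones were Synpo and the genes Podxl and Clic5, which endothelium also expresses. Podxl and Clic5, with untreated means of 2425 and 1516, made up most of the untreated sums. The remaining podocyte markers, Nphs1 and Wt1, were at 0.11 and -0.17, both below the median intensity. Markers of the thick limb and distal tubule, of the collecting duct and of stroma had medians of 0.16, 0.22 and -0.12, and their summed levels overlapped between the groups. In RNA from a mixed preparation, fewer cells of a type and less RNA per cell cannot be told apart, and the part of these other cells in the differences of the 10 genes was not tested.

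Phlda1, a protein with a pleckstrin homology-like domain whose transcript is widely used as a readout of ERK output, had the largest difference of the 10. Its normalised intensity was 1309, 984 and 878 with C-peptide (animals 1, 2 and 3, the order used throughout) and 2597 and 1789 without (animals 1 and 2). The groups did not overlap, and the lowest untreated array was well above the highest treated one. The log2 difference was -1.04 ± 0.23 (SE), with a 95% interval from -1.58 to -0.50, and an adjusted p of 0.175 in limma. With the dimmer probe sets left out of the table, 14608 were tested and limma's shared variance estimate was refitted to them. Phlda1 then passed at an adjusted p of 0.0396, as did 396 probe sets in all (2.71%). Its unadjusted p in limma was 0.000846 there, against 0.00251 in the main setting. Its difference kept its sign under all 14 alternative settings, between -0.79 and -1.29. It stayed at -1.04 where a setting changed only its error or averaged its probe sets, of which there was 1.

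Dusp1, the nuclear phosphatase MKP-1, acts on p38, JNK and ERK and is an immediate early gene. It gave 1182, 1561 and 1109 with C-peptide and 2152 and 1532 without. The treated animal 2 lay just above untreated animal 2, so the groups overlapped, and the distance between the group means came mostly from untreated animal 1. The log2 difference was -0.51 ± 0.21 (SE; adjusted p = 0.435 in limma), and -0.27 without untreated animal 1.

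Dusp5, a nuclear phosphatase specific for ERK, gave 465, 352.5 and 309 with C-peptide and 607 and 469 without. The groups did not overlap, but treated animal 1 came within a few units of untreated animal 2. The log2 difference was -0.51 ± 0.21 (SE; adjusted p = 0.422 in limma), and -0.33 without untreated animal 1. Dusp4, the nuclear phosphatase MKP-2, which acts on ERK and JNK, was the dimmest probe set of the 10 and the only one below the median of the table. It gave 48.1, 50.4 and 31.9 with C-peptide and 62.8 and 57.1 without, again with no overlap. Its log2 difference of -0.37 ± 0.18 (SE; adjusted p = 0.499 in limma) understates the change of so dim a probe set, because 16 was added before the logarithm. With 1 added it was -0.48, with 64 added -0.21, and without C-peptide animal 3 it was -0.22.

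The bases upstream of Dusp1, Dusp5 and Phlda1 are shown as examples, chosen with the values and the motif matches in view. Of the 5 lower genes, only Dusp1 and Dusp5 held a match to a motif searched. Phlda1, with the largest difference, held none, and neither did Dusp8 or Spry1, which are not shown. They are the 250 bases before the RefSeq start, on the gene's strand, in assembly GRCr8. Dusp1 lies at chr10:17184603-17184852 (plus strand), Dusp5 at chr1:262543524-262543773 (plus strand) and Phlda1 at chr7:48853440-48853689 (plus strand). Capitals mark matches on either strand to the motifs searched.
Dusp1: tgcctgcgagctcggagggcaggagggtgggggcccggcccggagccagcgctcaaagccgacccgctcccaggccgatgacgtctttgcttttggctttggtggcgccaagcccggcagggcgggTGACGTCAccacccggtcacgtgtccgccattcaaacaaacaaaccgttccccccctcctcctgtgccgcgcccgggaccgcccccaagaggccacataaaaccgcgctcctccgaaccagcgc
Dusp5: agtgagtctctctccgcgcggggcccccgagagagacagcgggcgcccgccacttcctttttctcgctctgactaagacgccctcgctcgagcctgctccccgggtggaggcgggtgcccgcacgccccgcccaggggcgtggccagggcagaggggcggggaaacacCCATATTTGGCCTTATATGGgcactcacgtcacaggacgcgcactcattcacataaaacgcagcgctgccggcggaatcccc
Phlda1: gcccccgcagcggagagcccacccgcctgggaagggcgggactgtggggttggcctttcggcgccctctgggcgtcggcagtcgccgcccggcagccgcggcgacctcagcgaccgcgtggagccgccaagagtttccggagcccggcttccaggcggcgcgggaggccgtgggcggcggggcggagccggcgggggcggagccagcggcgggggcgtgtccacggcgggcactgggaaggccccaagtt

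The motifs searched were the CArG box, to which serum response factor binds, the cyclic AMP response element TGACGTCA, the AP-1 site TGACTCA, the ETS site CCGGAAG and the EGR site GCGTGGG, none of which overlapped another in these windows. The Dusp5 window held a tandem pair of CArG boxes, CCATATTTGG and CCTTATATGG, whose first bases lie 82 and 72 bases before the start. A CArG box was found in 1.5% of the 33469 RefSeq windows of the same length. The Dusp1 window held a cyclic AMP response element, TGACGTCA, 124 bases before the start, a motif found in 1.59% of all windows. No match was found in the Phlda1 window. Of the 10 genes, 9 had an entry, and Spry2 had 2. Beyond these, Spry4 matched the EGR site (3.68% of all windows), while the AP-1 and ETS sites, in 4.05% and 7.27% of all windows, matched in none. A match is a string of letters, and binding was not measured here.

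Dusp6, the cytoplasmic phosphatase MKP-3, is specific for ERK and among the genes most often used to read ERK activity. It gave 385, 475 and 391 with C-peptide and 413.5 and 411 without. The untreated values were nearly equal and fell inside the treated range, so the groups overlapped fully. The log2 difference was 0.01 ± 0.15 (SE; adjusted p = 0.986 in limma), and it was -0.23 in the values as deposited, -0.06 after centring the arrays and -0.08 without C-peptide animal 2. Its 95% interval ran from -0.35 to 0.37, which does not overlap the interval of Phlda1. Dusp6 and Phlda1 had the highest and lowest differences of the 10, and they were not tested against each other. Other phosphatases of ERK gave -0.51 (nuclear Dusp5) and -0.53 (cytoplasmic Dusp7, not among the 10), and the difference of either from Dusp6 was not tested.

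Dusp8 and Dusp10 act mainly on JNK and p38. Dusp8 gave 133, 102 and 78.3 with C-peptide and 225 and 159 without, with no overlap between groups. The log2 difference was -0.79 ± 0.23 (SE; adjusted p = 0.276 in limma), and -0.56 without untreated animal 1, the only alternative in which its unadjusted p was above 0.05. Dusp10 gave 86.1, 84.0 and 90.6 with C-peptide and 94.7 and 103.5 without. Here too the groups were apart, yet by only a few units, and the log2 difference was -0.16 ± 0.14 (SE; adjusted p = 0.711 in limma), with a 95% interval from -0.48 to 0.16.

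**Figure D2:**
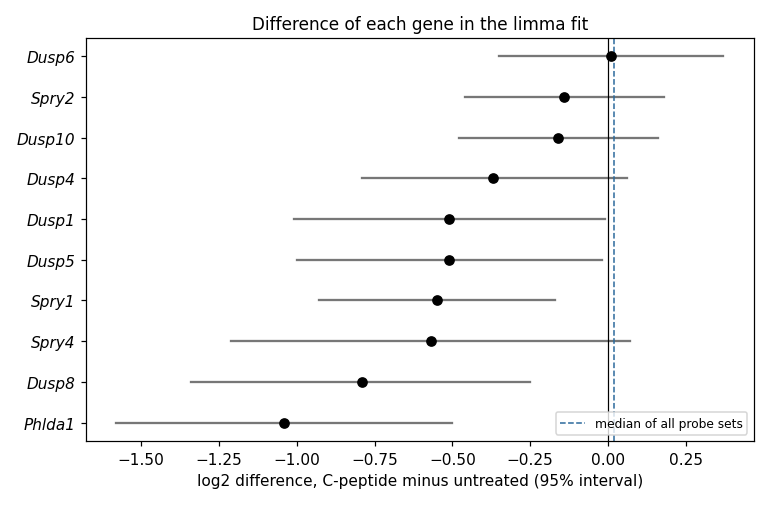
Log2 difference of each gene (points; x axis, C-peptide minus untreated) with its 95% interval from limma (bars), ordered by size; the dashed line is the median of all probe sets. Phlda1, Dusp8, Spry1, Dusp1 and Dusp5 have intervals wholly below 0, and the other 5 genes have intervals that include it.

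The Sprouty genes had log2 differences of -0.55 (Spry1), -0.57 (Spry4) and -0.14 (Spry2), which were not tested against each other. Spry1 gave 165, 131 and 157 with C-peptide and 249 and 207.5 without, so that every treated array was below both untreated ones. The log2 difference was -0.55 ± 0.16 (SE; adjusted p = 0.283 in limma), and -0.43 without untreated animal 1. Spry4 gave 409, 250.1 and 210.4 with C-peptide and 475 and 372 without. Treated animal 1 was above untreated animal 2, and the treated arrays spread widely. The Spry4 log2 difference was -0.57 ± 0.27 (SE; adjusted p = 0.488 in limma), as large as that of Spry1 with a wider error. Its unadjusted p was under 0.05 under 6 of the 14 alternative settings, and its value ran from -0.83 without C-peptide animal 1 to -0.37 without C-peptide animal 3. Spry2 gave 162, 153 and 158 with C-peptide and 183 and 168 without, separated by a small gap. Its log2 difference was -0.14 ± 0.14 (SE; adjusted p = 0.747 in limma), with a 95% interval from -0.46 to 0.18.

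Around these genes, 6 lists of the wider pathway were read in the same fit, with 107 of 122 genes measured. None passed at an adjusted p of 0.05. At an unadjusted p under 0.05, 19 were lower (17.8%) and 3 higher (2.80%), beside 6.30% and 5.06% of all probe sets. The lower count was again 19 without any 1 C-peptide array, beside 5.21% to 6.56% of all probe sets. The higher count was 8 without C-peptide animal 1 and 6 with the second treated array left out. In those fits 3249 and 3483 of all 29215 probe sets were at that threshold. Of these, 1773 (54.6%) and 1917 (55%) were lower and the rest higher. Both counts fell when either untreated array was left out. Values that follow are log2 differences, C-peptide minus untreated, with the SE and limma's adjusted p.

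Of the other dual-specificity phosphatases, 4 of 15 measured were lower and 0 higher at that threshold, with a median of -0.18. Dusp3, a small phosphatase also called VHR, was at -0.46 ± 0.15 (adjusted p = 0.327). Dusp18 was at -0.47 ± 0.17 (adjusted p = 0.378) and Dusp7, a cytoplasmic ERK phosphatase close to Dusp6, at -0.53 ± 0.19 (adjusted p = 0.38). Dusp15, the remaining one and named only to complete the count, was at -0.82 ± 0.33 (adjusted p = 0.414) and below the median intensity. Other inhibitors of the ERK pathway did not lean one way, with 1 of 17 lower, 1 higher and a median of 0.06. Errfi1, which binds and blocks the EGF receptor, was on the higher side at 0.79 ± 0.21 (adjusted p = 0.223), with 3696, 3089 and 4796 on the treated arrays and 2339 and 2052 on the untreated ones. Its groups were far apart, opposite in direction to Phlda1. Spred1, a Sprouty relative that restrains Ras, was at -0.80 ± 0.29 (adjusted p = 0.376) and its relative Spred2 at -0.54 ± 0.25 (adjusted p = 0.466). Both leaned on C-peptide animal 1, without which they were at -0.49 and -0.29.

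In the cascade itself, 3 of 18 measured genes were lower and 0 higher, with a median of -0.17. These were Rps6ka2, a ribosomal S6 kinase that ERK activates, at -0.80 ± 0.21 (adjusted p = 0.226), the scaffold Ksr1 at -0.43 ± 0.15 (adjusted p = 0.377) and the adaptor Grb2 at -0.39 ± 0.15 (adjusted p = 0.388). Grb2 was at -0.04, with no call, when the mean of its probe sets was taken in place of the brightest. The kinases Map2k1 and Map2k2, which activate ERK, were at -0.23 ± 0.16 and -0.01 ± 0.17, and were chosen for their role after values were seen. In the JNK and p38 cascade, 1 of 16 was lower and 0 higher, with a median of 0.07. That gene was Mapk12, a p38 isoform, at -0.95 ± 0.24 (adjusted p = 0.213), while Mapk14, the main p38 kinase, was at 0.27 ± 0.14 (adjusted p = 0.518) and Map3k1 at 0.27 ± 0.14 (adjusted p = 0.526), or 0.05 and 0.04 in the values as deposited.

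Of the receptors that feed the pathway, 2 of 16 were higher and 0 lower, with a median of 0.25. Fgfr4, a fibroblast growth factor receptor, was at 0.46 ± 0.14 (adjusted p = 0.304) and Erbb3, a partner of the EGF receptor family, at 0.40 ± 0.14 (adjusted p = 0.35). In the values as deposited these were 0.23 and 0.17, and neither had an unadjusted p under 0.05. Pdgfrb, also a marker of stroma, was at -0.36 ± 0.16 (adjusted p = 0.455). Among genes listed as induced by ERK or acting at its nuclear end, 10 of 25 were lower and 0 higher, with a median of -0.33. Junb, an AP-1 factor, was at -0.78 ± 0.15 (adjusted p = 0.138), the transcription factor Ets1 at -0.94 ± 0.18 (adjusted p = 0.138) and the immediate early gene Ier2 at -0.63 ± 0.14 (adjusted p = 0.178). These 3 passed at an adjusted p of 0.05 in limma where dim probe sets were left out (0.0279, 0.0278 and 0.0495). There 2.71% of the probe sets tested passed. Junb and Ets1 passed with a trended and robust prior too (0.0417 and 0.0459), beside 0.709% of all probe sets. At a pseudocount of 64 Junb passed (0.048), beside 0.404%. The other 7 were Elk3 (-1.24 ± 0.28), Egr1 (-0.76 ± 0.20), Ier5 (-0.62 ± 0.14), Fos (-0.59 ± 0.16), Ier3 (-0.57 ± 0.19), Jun (-0.56 ± 0.15) and Ccnd1 (-0.50 ± 0.15). On the other side of 0, Myc was at 0.71 ± 0.32, Maff at 0.54 ± 0.23, Fosl1 at 0.33 ± 0.26 and Etv1 at 0.24 ± 0.23. Ereg and Areg, both below the median intensity, were at 0.17 ± 0.18 and 0.06 ± 0.16. None of these was at that threshold. The Ets-family targets most often tied to ERK, Etv4 and Etv5, gave -0.05 ± 0.20 and -0.03 ± 0.14. Both were below the median intensity, unlike Etv1. Beyond the 3 of smallest p, the genes of this list were named with their values in view. Ets1 and Elk3 are expressed in endothelium, whose markers were lower by a median of 1.14 on the log2 scale on these arrays. The part of endothelial RNA in the differences of this list was not tested.

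**Figure D3:**
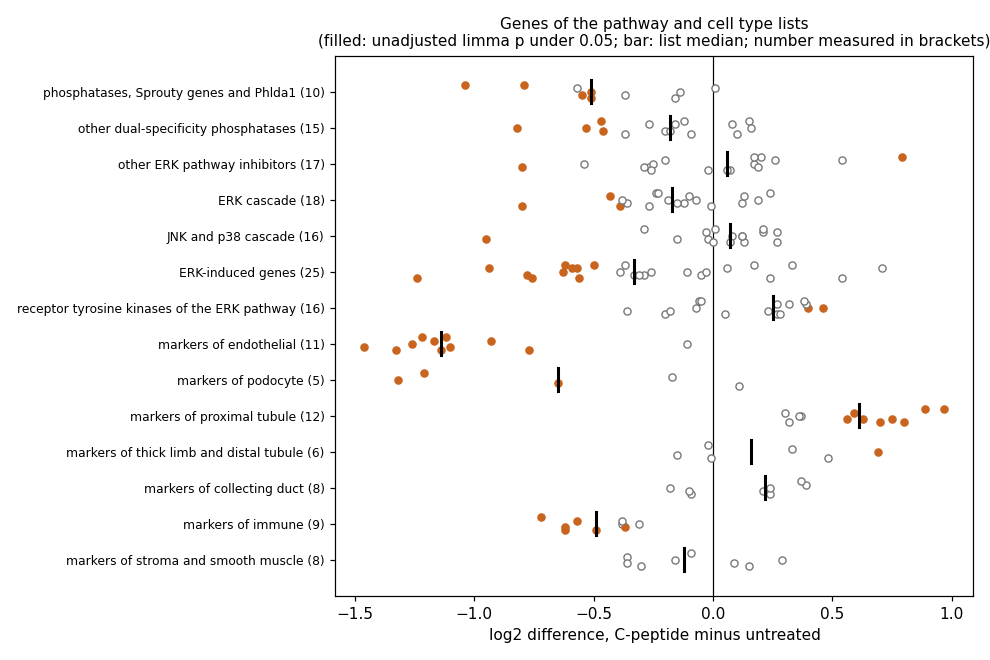
Log2 difference (x axis, C-peptide minus untreated) of every measured gene of the 10, of the 6 pathway lists and of the 7 cell type marker lists (rows, number measured in brackets); filled points have an unadjusted limma p under 0.05 and the bar is the list median. The medians of the marker lists run from -1.14 (endothelial) to 0.61 (proximal tubule). That of the 10 genes (-0.51) is nearest to those of the immune (-0.49) and podocyte (-0.65) markers.

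The profiles most like those of Phlda1 and Dusp8, the members of smallest p, were sought by Euclidean distance between log2 values over the 5 arrays, each gene centred on its mean, among 8574 brighter genes. Nearest to Phlda1 were Sema7a, a membrane-anchored semaphorin (distance 0.281), Irf7, an interferon regulatory factor (0.285), and Dusp8 itself (0.294). Nearest to Dusp8 were Sema7a (0.154), Nrarp, an ankyrin repeat protein induced by Notch (0.184), and Tap1, a peptide transporter of antigen presentation (0.195). Sema7a gave 611, 442 and 348 with C-peptide and 952 and 748 without, in the same order of arrays as Dusp8. With 5 arrays such likeness is a description only.

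Across the 14 alternatives, which the plot of differences by setting shows, Dusp8 and Spry1 were lower in each, from -1.01 to -0.56 and from -0.77 to -0.43, with an unadjusted p under 0.05 in 13. Dusp1 and Dusp5 were lower in each too, from -0.75 to -0.27 and from -0.72 to -0.33, and had such a p in 8 and 9. Dusp4 was below 0 in the 13 that tested it, from -0.50 to -0.21, with such a p in none. Dusp10 and Spry2 stayed below 0 as well, between -0.34 and -0.09 together, with such a p in none. The settings share arrays and are not independent of each other. Each gene had 1 probe set, so averaging a gene's probe sets repeated the main fit. Leaving out dim probe sets and using a trended prior changed the errors and left the differences as they were. With the animal number as a block, C-peptide animal 3 had no untreated partner, and the differences nearly repeated those without that array.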

How the data were processed

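Total RNA of 5 arrays (3 C-peptide, 2 untreated) was compared. The deposited values are linear probe-set intensities, which the authors made with PLIER in Affymetrix Expression Console 1.1 (submitters' processing notes). The sources used here do not give their background correction, scaling or filters. Array medians as deposited ran from 60.1 to 95.9, so the arrays were quantile-normalised, 16 was added and log2 was taken, which understates differences of dim probe sets. The limma package (3.58.1, in R 4.3.3) gave the comparison by lmFit and eBayes, with a two-sided test of the group term alone, Benjamini-Hochberg adjustment across the 29215 probe sets, and 95% intervals. The script was tested on simulated arrays.

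Probe sets were named by the platform annotation, with symbols updated through RefSeq (GRCr8), which held 15279 of the 15310 with 1 symbol. Upstream sequences are from RefSeq. A gene was read from its brightest probe set. The rule for named genes took all 10 genes, up to 3 of smallest p per pathway list and, for 2 genes, the 3 nearest profiles; a few others were named with their values in view, as the text says. Members, lists and settings were chosen with earlier results of these data known, and the motifs after the values were seen. The number of arrays limits the precision.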

Additional observations from a re-analysis of the deposited data

How the results depend on the processing

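Over all probe sets, 0 passed at an adjusted p of 0.05 in limma in the main setting, with array weights, with the animal number as a block and without any 1 array, against 52 in the values as deposited, 29 after centring, 1 at a pseudocount of 1, 118 at a pseudocount of 64, 207 with a trended and robust prior and 396 once dim probe sets were left out, where fewer were tested. The count of the 10 genes lower at an unadjusted p under 0.05 in limma was 5 in the main setting. It was 3 at a pseudocount of 1, beside 5.5% of all probe sets, and 3 with the animal number as a replicate block, beside 5.44%. It was 6 in the values as deposited (6.38%), after centring (6.06%), with a trended and robust prior (6.76%) and without dim probe sets (9.86% of those tested). Without single C-peptide arrays it was 3 to 5, beside 5.21% to 6.56%. Without untreated animal 1 it was lowest, and the median log2 difference of the 10 genes was -0.32. The pathway genes lower numbered 19 without any single C-peptide array, beside 5.21% to 6.56% of all probe sets, and fewer when either untreated array was left out. The higher ones, 3 in the main setting, numbered 1 in the values as deposited. There 1865 of the 2058 probe sets at that threshold were lower (90.6%) and the rest higher. The higher pathway genes numbered 5 at a pseudocount of 64, where 2028 of 3754 such probe sets were lower (54%). They numbered 5 with a trended and robust prior (1975 of 3606 lower, 54.8%). Without dim probe sets they numbered 5 as well (1440 of 2648 lower, 54.4%, with 14608 tested). Without single C-peptide arrays they numbered 4 to 8 (54.6% to 57.3%), and they were fewer than 3 when either untreated array was left out. Dusp6 changed sign to -0.23 as deposited, -0.06 after centring and ran from -0.08 to 0.06 without single arrays. The cause of these changes was not tested. Deviations from the group mean correlated across probe sets at r = -0.02 and 0.01 for same-numbered arrays. With 2 untreated arrays the deviations of 1 mirror those of the other, so this cannot decide whether the animal numbers pair the arrays. The block left Dusp8, Spry1 and Phlda1 lower at an unadjusted p under 0.05 in limma. Where an untreated array was left out, the lone one was assumed to vary like the others. Dusp4 was not tested without dim probe sets.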

Other observations

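The order of the arrays within each group depended on the scaling, a comparison made after the values were seen. After quantile normalisation the array of C-peptide animal 1 was the highest treated one, and that of untreated animal 1 was above untreated animal 2, in 6 of the 10 genes (Dusp5, Dusp8, Spry1, Spry2, Spry4 and Phlda1), against 17.8% of all probe sets. In the values as deposited this held for 1 of the 10 (Spry4), against 3.84% of all probe sets. The array of C-peptide animal 1 was the dimmest as deposited, with a median intensity of 60.1. The summed endothelial markers were highest among treated arrays in animal 2, at 13545 after quantile normalisation, beside 8939 in animal 1 and 8698 in animal 3.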
